A study of Mus musculus with 6 samples.

Results

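Type I interferon-stimulated genes are genes that cells switch on when interferon α or β binds its receptor. A list of 35 such genes was looked up by symbol in a liver gene table of 17119 symbols, and 33 of them had a row there. Mx1 and Mx2 were not analysed here. All 33 had enough reads to be tested. RNA came from whole liver of mice kept for 12 weeks on HFHCD, a diet rich in fat and cholesterol. Every mouse had an iCre transgene under the control of Clec4f, a lectin gene that marks Kupffer cells, which are macrophages resident in liver. The 3 wild-type samples are littermates with intact Cebpb (Clec4f-iCre;Cebpb+/+), and the 3 heterozygous samples have 1 floxed Cebpb allele (Clec4f-iCre;Cebpbfl/+). The labels name no litter for any sample, so samples were not matched by litter. In the genotype labels of replicates 2 and 3 the driver reads Clec5f-iCre and Clec6f-iCre. The series design gives Clec4f throughout, and that name is used here. The sources used here do not give age, sex or strain. The comparison asks how liver RNA differs when Kupffer cells lose 1 copy of Cebpb, which encodes the transcription factor C/EBPβ.

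Type I interferons are secreted by cells that sense foreign or misplaced nucleic acid, and bind a receptor made of IFNAR1 and IFNAR2 that nearly all cells carry. The kinases JAK1 and TYK2 then phosphorylate transcription factors such as STAT2, which joins IRF9 in a complex that binds the interferon-stimulated response element in the promoters of target genes. The products degrade or trap viral RNA, restrict nucleotides, tag proteins with the ubiquitin-like ISG15, sense more RNA or feed back on the pathway. In liver both hepatocytes and macrophages respond to interferon, so RNA of these genes in whole tissue is a sum over cell types. Fewer cells of a type and less RNA per cell cannot be told apart in such samples.

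The core of the response element can be written as GAAANNGAAA, and this word was searched on both strands, with overlapping matches counted separately, in windows of 300 bases from 250 before to 50 after each RefSeq start (build GRCm38.p6, older than the GRCm39 of the counts). Of the 35 listed genes 26 had a window, and 13 of these (50%) held the word, as did 3.99% of all 27025 genes with a window. Shown are the 160 bases before the start for the 4 members with a match and the smallest unadjusted p, 5′ to 3′ on the gene's strand, with matches in capitals, because they show how close to the start the element lies in members of different families.
Oas3, chr5:120777660-120777819, minus strand: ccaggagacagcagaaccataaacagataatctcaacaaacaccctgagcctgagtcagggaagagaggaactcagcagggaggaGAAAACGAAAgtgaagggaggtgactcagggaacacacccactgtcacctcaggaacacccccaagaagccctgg
Trim30a, chr7:104465194-104465353, minus strand: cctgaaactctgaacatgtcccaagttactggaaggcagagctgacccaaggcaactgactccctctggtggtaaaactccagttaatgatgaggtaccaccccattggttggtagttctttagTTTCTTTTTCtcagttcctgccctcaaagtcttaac
Oas1a, chr5:120907526-120907685, minus strand: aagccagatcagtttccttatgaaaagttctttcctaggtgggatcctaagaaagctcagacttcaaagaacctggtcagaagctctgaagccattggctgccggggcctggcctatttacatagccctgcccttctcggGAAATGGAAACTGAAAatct
Ifit3, chr19:34583369-34583528, plus strand: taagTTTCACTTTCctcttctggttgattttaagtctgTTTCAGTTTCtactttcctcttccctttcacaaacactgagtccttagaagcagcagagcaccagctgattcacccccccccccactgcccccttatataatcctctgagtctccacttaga

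In Oas3 the match began 75 bases before the start and in Trim30a 36 bases before it. Oas1a held 2 overlapping matches that began 20 and 14 bases before its start. Ifit3 and its close copy Ifit3b each held a pair, at 156 and 122 bases before the start in Ifit3 and at 188 and 154 in Ifit3b. Isg15 held 3, at 78, 72 and 66 bases before the start, and Ifit1, Bst2, Rsad2 and Stat2 held matches before their starts as well. In Ifih1, Ddx58 and Eif2ak2 the word lay after the start, as it did in another window of Trim30a. The word was not in these windows of Oasl2, Oasl1, Samhd1, Ifi44, Irf7, Herc6, Xaf1, Ifi35, Lgals3bp, Cmpk2, Irf9, Dtx3l and Ifit2.

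Cebpb itself measured 506, 308 and 340.4 CPM (reads scaled to a common library size with a TMM factor) in wild-type replicates 1, 2 and 3, and 204, 498 and 269 CPM in the heterozygous replicates. The groups overlapped (log2 fold change −0.25 ± 0.37 SE, edgeR adjusted p = 0.864). Hepatocytes also transcribe Cebpb, so its level in whole liver is a weak check of the labels. Libraries held 16895322 to 17750755 counts, and members were covered by 17 (Oas3) to 4952 (Bst2) reads per library. The 6 hepatocyte markers summed to 94460 to 126500 CPM, far above every other marker list. Wild-type replicate 1 and heterozygous replicate 2 stood apart in Socs3, a feedback gene of cytokine signalling, with 48.1 and 101 CPM against 4.08 to 21.4 CPM in the other libraries. Results were also computed without both. The labels do not say that samples come from separate animals, and p-values then reflect only how these samples vary, which may be technical.

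Most of the interferon-stimulated genes measured somewhat less RNA in the heterozygous livers, by small amounts, and 1 of 33 passed the test. Of the 33, 28 had a negative and 5 a positive log2 fold change (heterozygous over wild-type), with a median of −0.32, a range from −1.06 to 0.24, and a median of 0.005 over all 12706 tested genes. Oasl2, an oligoadenylate synthetase-like gene, was the member past an edgeR adjusted p of 0.05, lower in the heterozygous livers, and 0 members were higher (0 also at an unadjusted p of 0.05). Over all tested genes 0.559% were called lower and 0.0236% higher. DESeq2 called 2 members lower, Oasl2 and Samhd1, against 3.36% of the genes it tested. At an unadjusted edgeR p of 0.05, 13 of 33 members (39.4%) were lower, against 9.0% (1143) of all genes. In 15 of 33 (45.5%) every heterozygous library lay below every wild-type library, against 11.3% of all genes. In 0 members did every heterozygous library lie above, against 7.05% of all genes. Without wild-type replicate 1 and heterozygous replicate 2 the median was −0.38, and 0 members passed.

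**Figure D1:**
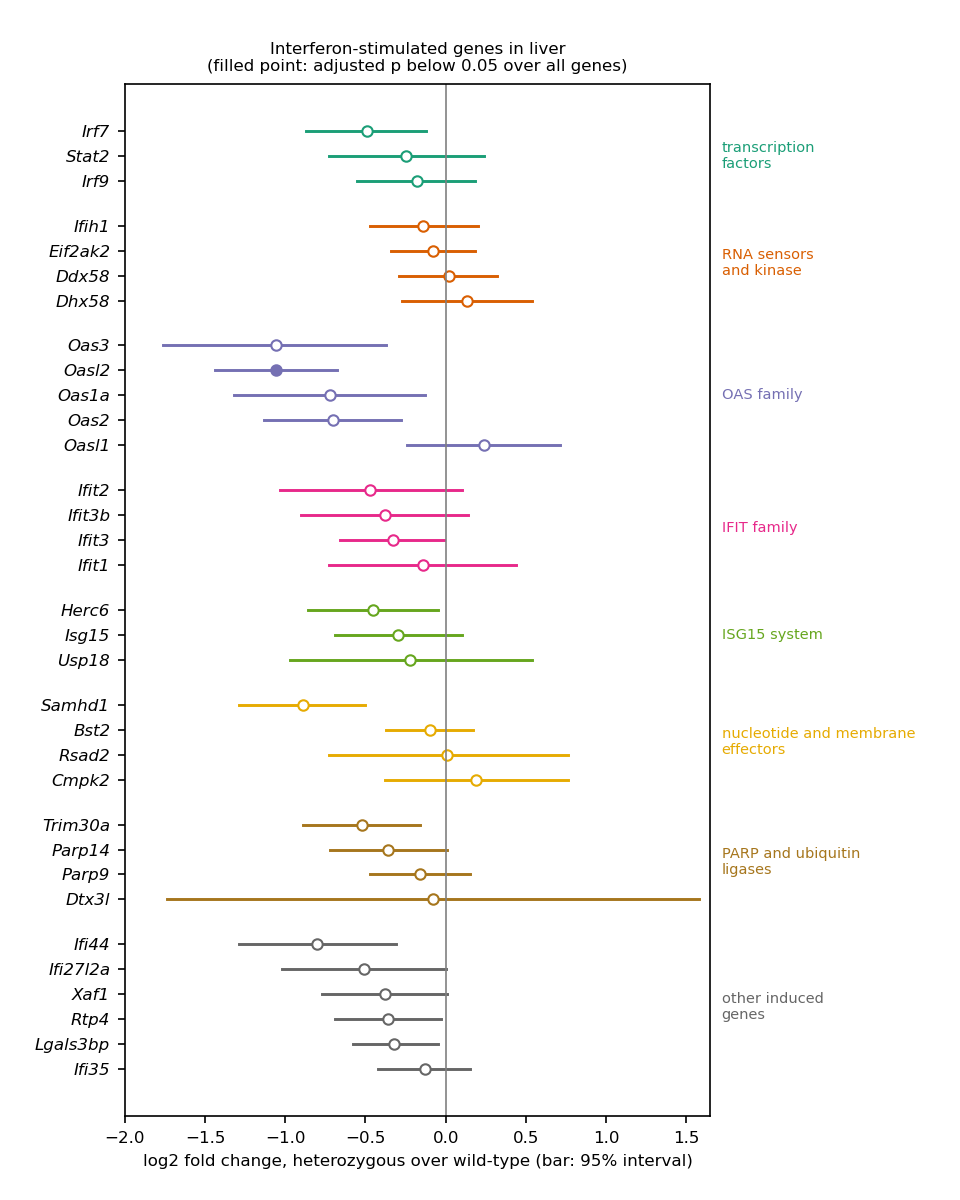
Log2 fold change of each of the 33 tested members (heterozygous over wild-type, x axis) with its 95% interval, grouped and coloured by role, and a filled point where the edgeR adjusted p is below 0.05. Oasl2 and Oas3 lie farthest to the left at −1.06, the RNA sensors lie around 0, and Oasl2 is the filled point.

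Active oligoadenylate synthetases make, on binding double-stranded RNA, a messenger that activates the RNA-cutting enzyme RNase L. Their family, which here includes the synthetase-like Oasl1 and Oasl2, had the lowest median log2 fold change of the role groups, −0.72 over 5 genes. Oasl2 measured 14.3, 15.1 and 12.8 CPM in wild-type replicates 1 to 3 and 5.59, 6.84 and 7.80 CPM in heterozygous replicates 1 to 3. Every heterozygous library lay well below every wild-type one, and the mean fell 2.08-fold, from 14.1 ± 1.16 to 6.74 ± 1.11 CPM (SD, n = 3; log2 fold change −1.06 ± 0.17 SE, edgeR adjusted p = 0.0445). Leaving out wild-type replicate 1, 2 or 3 ended the call (edgeR adjusted p = 0.0604, 0.126 and 0.0666) as did leaving out heterozygous replicate 1 or 2 (0.218 and 0.178), with log2 fold changes from −1.12 to −0.93. It also ended with both wild-type replicate 1 and heterozygous replicate 2 left out (0.126). Across all alternatives its adjusted p from edgeR, DESeq2 and limma ran from 0.000107 (DESeq2) to 0.218.

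The other synthetase genes did not pass the test. Oas2 measured 12.4, 10.7 and 9.91 CPM in the wild-type and 6.12, 5.88 and 8.26 CPM in the heterozygous libraries. These groups did not overlap (log2 fold change −0.70 ± 0.19, edgeR adjusted p = 0.130). For Oas3, whose product is the longest of the family, the wild-type libraries measured 3.72, 2.72 and 2.68 CPM and the heterozygous ones 0.990, 1.76 and 1.61 CPM. The log2 fold change equalled that of Oasl2 at −1.06, but its SE of 0.31 was larger and the edgeR adjusted p was 0.154. Oas1a stood at 7.82 ± 1.42 and 4.73 ± 1.47 CPM (−0.72 ± 0.26). Of the stretches of 50 bases in the longest Oas1a transcript, 57.6% also occur in other genes, chiefly its paralogues Oas1g and Oas1b, so its level is uncertain. Oas2 and Oas3 are neighbours in RefSeq.

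Oasl1, which lies near Oasl2 with 1 gene between them in RefSeq, had the 1 positive log2 fold change of the family. It encodes a protein that binds the messenger RNA of Irf7 and holds back its translation. Its libraries measured 13.8, 15.6 and 11.1 CPM in wild-type and 16.0, 19.8 and 11.8 CPM in heterozygous livers, and overlapped (log2 fold change 0.24 ± 0.21, 95% interval −0.24 to 0.71). The log2 ratio of Oasl2 to Oasl1 reads was 0.06, −0.05 and 0.21 in the wild-type and −1.52, −1.53 and −0.59 in the heterozygous libraries, which needs no scaling between libraries. Its group means differed by −1.29. The pair was chosen after its values were seen, so the ratio is given as a description. An exact permutation test gave p = 0.1, the smallest that 3 libraries against 3 allow, and no conclusion is drawn from it.

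**Figure D2:**
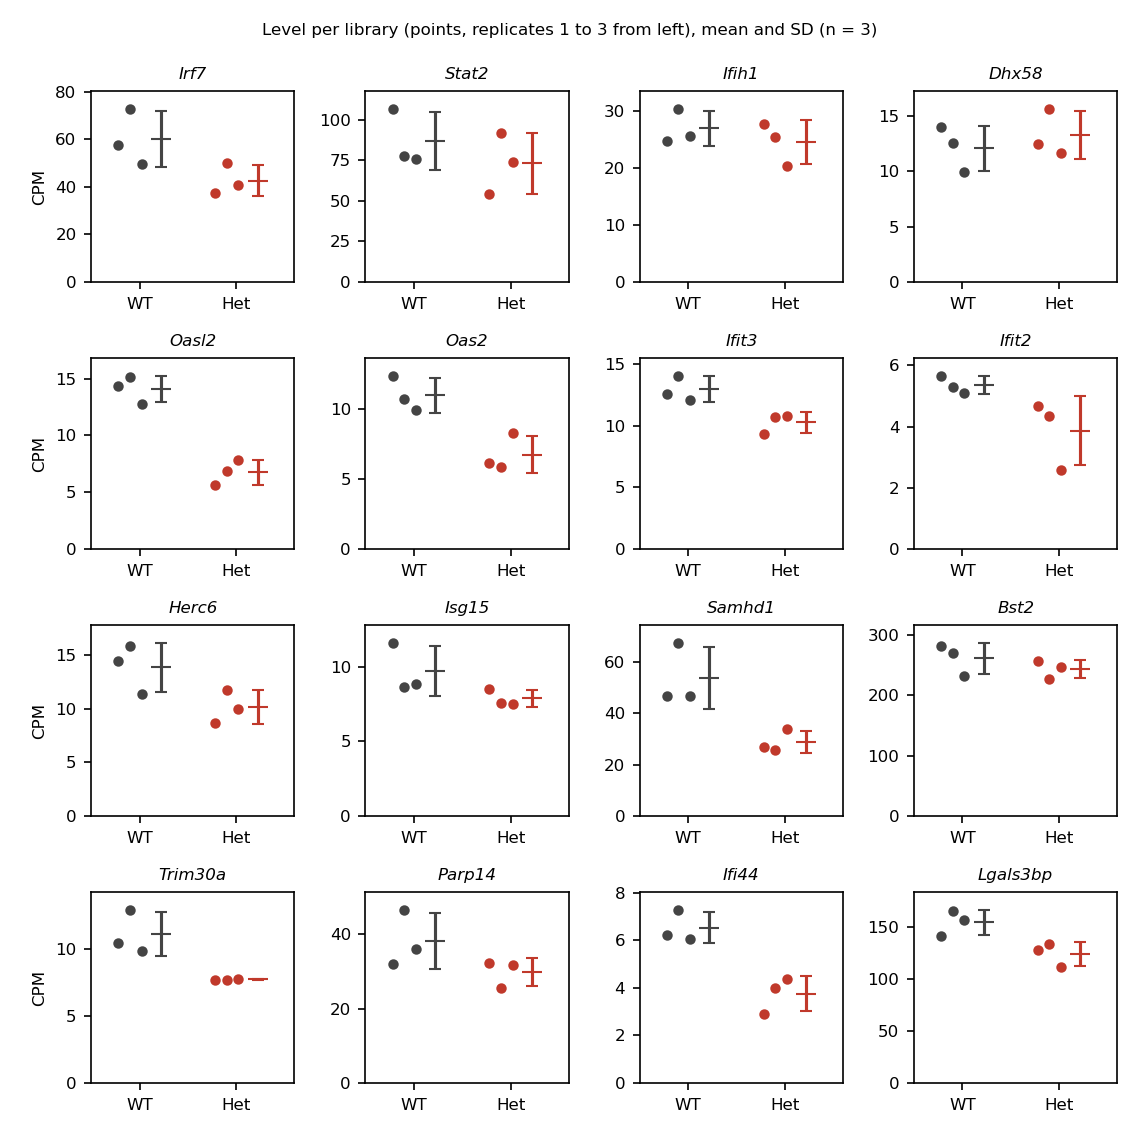
Level in CPM (y axis, from 0) of 16 members in each wild-type (WT, grey) and heterozygous (Het, red) library, with the mean and SD of 3 libraries beside the points. The groups are separate for Oasl2, Oas2, Samhd1, Ifi44, Trim30a, Lgals3bp, Ifit2, Ifit3 and Isg15, and overlap for Irf7, Stat2, Ifih1, Dhx58, Herc6, Bst2 and Parp14.

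Among effectors that act on nucleotides or membranes, Samhd1 stood apart from the other genes. Its product breaks down deoxynucleotides and so starves viral reverse transcription. Samhd1 measured 46.7, 67.5 and 46.7 CPM in wild-type and 27.0, 25.7 and 33.8 CPM in heterozygous libraries. The groups did not overlap and the means were 53.6 ± 12.0 and 28.8 ± 4.36 CPM (log2 fold change −0.89 ± 0.18). It missed the threshold in edgeR (adjusted p = 0.0569) and passed in DESeq2 (adjusted p = 0.00121) and in edgeR with no filter on low counts (adjusted p = 0.0275).

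Bst2, or tetherin, which holds budding virus at the cell surface, measured 282, 269 and 232 CPM in wild-type and 257, 227 and 247 CPM in heterozygous libraries. Its groups overlapped, and the interval of the log2 fold change ran from −0.37 to 0.17. Rsad2, or viperin, makes a chain-terminating nucleotide, and Cmpk2, its neighbour in RefSeq, encodes a mitochondrial nucleotide kinase. Rsad2 measured 11.9, 10.6 and 8.21 CPM in wild-type and 13.4, 12.1 and 5.45 CPM in heterozygous libraries. Cmpk2 measured 7.08, 8.65 and 8.54 CPM and 12.1, 9.81 and 5.91 CPM. Both were highest in heterozygous replicate 1 and lowest in heterozygous replicate 3. Their intervals, from −0.73 to 0.76 and from −0.38 to 0.76, leave room for differences in either direction.

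The RNA sensors had the smallest differences. Ifih1 encodes MDA5 and Ddx58 encodes RIG-I, the cytoplasmic receptors of viral RNA, Dhx58 encodes their regulator LGP2, and Eif2ak2 encodes PKR, a kinase that stops translation on binding double-stranded RNA. All 4 overlapped between groups, as did 10372 of the 12706 tested genes. Log2 fold changes of the 4 ran from −0.14 to 0.13, with edgeR adjusted p-values of 0.791 or more. Ifih1 measured 24.8, 30.5 and 25.6 CPM in wild-type and 27.8, 25.5 and 20.4 CPM in heterozygous libraries. Dhx58 measured 14.0, 12.6 and 9.91 CPM and 12.5, 15.7 and 11.7 CPM. For Ddx58 the 95% interval ran from −0.29 to 0.32 and for Eif2ak2 from −0.34 to 0.18, so for both a difference as large as the −1.06 of Oasl2 lies outside the interval.

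Of the transcription factors, Irf7, the amplifier of interferon production, measured 57.5, 73.0 and 49.7 CPM in wild-type and 37.6, 49.9 and 40.7 CPM in heterozygous livers. Wild-type replicate 3 and heterozygous replicate 2 were almost level, so the groups overlapped narrowly (log2 fold change −0.49 ± 0.17, edgeR adjusted p = 0.224). Stat2 measured 107, 77.6 and 75.7 CPM and 54.1, 91.7 and 74 CPM, with the lowest value in heterozygous replicate 1. Its log2 fold change was −0.25 ± 0.21. Irf9, a DNA-binding partner of STAT2, stood at 37.8 ± 4.93 and 33.3 ± 6.53 CPM.

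IFIT proteins bind RNA whose cap marks it as foreign, and their genes lie in 1 cluster in RefSeq. All 4 had negative log2 fold changes, from −0.47 to −0.14, and 3 of the 4 were lower in every heterozygous library (11.3% of all genes were). None of the 4 passed the test. Ifit3 measured 12.6, 14.1 and 12.1 CPM in wild-type and 9.32, 10.7 and 10.8 CPM in heterozygous libraries (log2 fold change −0.33 ± 0.14, edgeR adjusted p = 0.369). Ifit2 measured 5.67, 5.28 and 5.09 CPM and 4.66, 4.36 and 2.58 CPM, and its low value in heterozygous replicate 3 sets much of the difference (−0.47 ± 0.25, and −0.24 without that library). Ifit1 overlapped, at 7.52 ± 0.641 and 6.81 ± 2.43 CPM. Ifit3b stood at 3.22 ± 0.206 and 2.47 ± 0.326 CPM. Ifit3 shares 51.2% and Ifit3b 45.0% of 50-base stretches with other genes, chiefly with each other, so the division of reads between them is uncertain.

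ISG15 is attached to proteins by a ligase that Herc6 encodes in the mouse and taken off by the protease of Usp18, which also blocks signalling at the receptor. Isg15 measured 11.6, 8.60 and 8.81 CPM in wild-type and 8.50, 7.57 and 7.51 CPM in heterozygous libraries. The groups were separate by a narrow margin (log2 fold change −0.30 ± 0.18, edgeR adjusted p = 0.548). Herc6 measured 14.5, 15.9 and 11.4 CPM and 8.68, 11.8 and 9.98 CPM (−0.45 ± 0.18). Of the 50-base stretches in its longest transcript, 23.8% also occur in Gm45193, so its level is uncertain. Usp18 varied within each group, at 13.1, 17.3 and 8.70 CPM and 10.8, 15.4 and 7.40 CPM, and the 95% interval of its log2 fold change was −0.97 to 0.54.

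Parp9 and Dtx3l encode partners in a ubiquitin ligase complex, Parp14 a mono-ADP-ribosyltransferase and Trim30a a ubiquitin ligase of the TRIM family. Trim30a measured 10.4, 12.9 and 9.85 CPM in wild-type and 7.69, 7.69 and 7.74 CPM in heterozygous livers. The heterozygous libraries were almost equal and all lay below the wild-type ones (log2 fold change −0.52 ± 0.16, edgeR adjusted p = 0.182). Parp14 measured 32.1, 46.7 and 36.2 CPM and 32.3, 25.5 and 31.9 CPM, and heterozygous replicate 1 just exceeded wild-type replicate 1. Its log2 fold change was −0.36 ± 0.16, against −0.16 ± 0.14 for Parp9.

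Each of the 6 remaining induced genes had a negative log2 fold change, from −0.80 to −0.13, and 5 of them were lower in every heterozygous library (11.3% of all genes were). None of the 6 passed the test. Ifi44 encodes a cytoplasmic protein that restrains cell growth and virus. It measured 6.22, 7.29 and 6.07 CPM in wild-type and 2.91, 4 and 4.36 CPM in heterozygous libraries (log2 fold change −0.80 ± 0.22, edgeR adjusted p = 0.134). Lgals3bp, a secreted ligand of galectins, measured 142, 166 and 157 CPM and 128, 134 and 112 CPM (−0.32 ± 0.12, edgeR adjusted p = 0.273). Ifi27l2a had a log2 fold change of −0.51 ± 0.23, Xaf1, an antagonist of an apoptosis inhibitor, −0.38 ± 0.17, and Rtp4, a chaperone of membrane receptors, −0.36 ± 0.15. Rtp4 shares 13.6% of its 50-base stretches with Gm45338, which makes its level less certain. Ifi35 overlapped, with −0.13 ± 0.13.

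Across libraries the members did not keep a single order. Over the 33 members the mean log2 CPM was 4.12, 4.29 and 4.01 in wild-type replicates 1 to 3 and 3.78, 3.91 and 3.72 in heterozygous replicates 1 to 3. Wild-type replicate 2 was the highest of all 6 libraries for 17 members and heterozygous replicate 1 the lowest for 13. Within the wild-type group replicate 3 was lowest for 22 of 33, and within the heterozygous group replicate 3 was lowest for 14 and replicate 1 for 13. The median SD of log2 CPM was 0.20 among wild-type and 0.22 among heterozygous libraries for the members, and 0.19 in both groups for all tested genes.

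**Figure D3:**
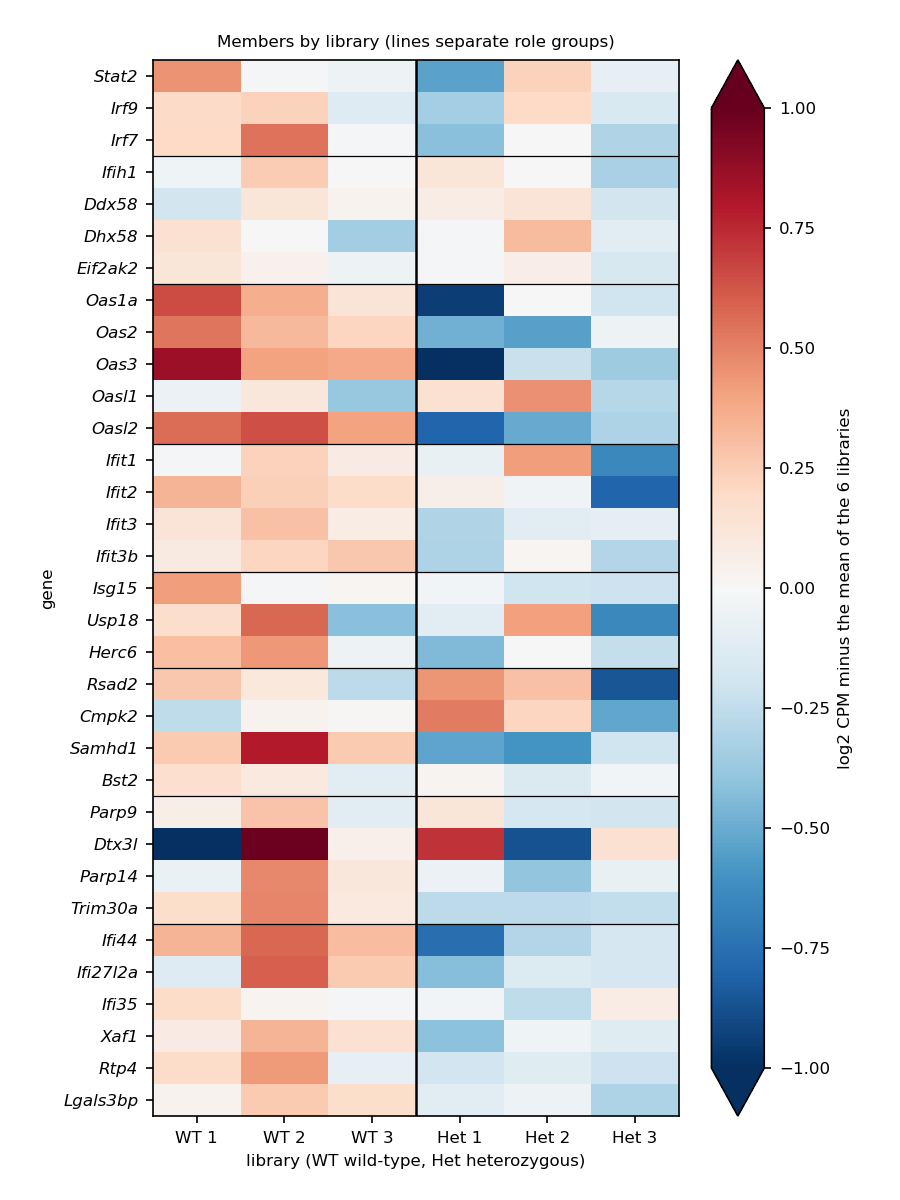
Log2 CPM of each member in each library minus its mean over the 6 libraries (colour, red above and blue below, capped at 1 in either direction), with members in rows by role group. Red fills the wild-type columns for Oasl2, Oas3 and Ifi44, while Ddx58, Rsad2 and Cmpk2 show no such division and Dtx3l runs across the groups.

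The 36 other genes of the pathway were listed by role, and 29 of them were tested. Of these, 26 had a negative and 3 a positive log2 fold change, with a median of −0.39. Past the test were 2 of 29 (6.9%), both lower, against 0.559% of all genes, and 15 of 29 (51.7%) were lower in every heterozygous library, against 11.3% of all genes. Ligand genes were barely read in whole liver. Ifnb1, interferon β, had 1, 1 and 1 reads in wild-type and 2, 0 and 0 in heterozygous libraries, all under the 3 reads that a count of 0 allows. Ifnk had 0 in every library. Ifng, the type II interferon of T and NK cells, had 6, 11 and 7 reads against 5, 0 and 4. No fold is given for these, and the 4 other listed ligands were not analysed here.

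Receptor levels for type I interferon were close between the groups. Ifnar1 measured 38.3, 39.3 and 37.8 CPM in wild-type and 38.0, 32.7 and 36.9 CPM in heterozygous libraries (95% interval of the log2 fold change −0.34 to 0.14). Ifnar2 measured 86.4, 77.8 and 86.7 CPM and 78.9, 74.6 and 76.4 CPM, with means of 83.6 ± 5.04 and 76.6 ± 2.16 CPM (−0.35 to 0.10). Both chains of the interferon γ receptor were lower in every heterozygous library (11.3% of all genes were). Ifngr2 had a log2 fold change of −0.54 ± 0.13 and passed in neither edgeR (adjusted p = 0.111) nor DESeq2 (adjusted p = 0.0629). Ifngr1 measured 30.6, 30.6 and 29.4 CPM and 20.4, 19.0 and 21.6 CPM, a log2 fold change of −0.57 ± 0.11 that missed the threshold in edgeR (adjusted p = 0.0539) and passed in DESeq2 (adjusted p = 0.00793).

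Both pathway genes that passed belong to nucleic acid sensing. Sting1, the adaptor of DNA sensing by cGAS, measured 9.94, 10.9 and 8.92 CPM in wild-type and 3.90, 4.48 and 4.65 CPM in heterozygous livers, and fell 2.28-fold (log2 fold change −1.19 ± 0.18, edgeR adjusted p = 0.0357). Zbp1, which senses nucleic acid in the left-handed Z form, measured 24.9, 27.6 and 17.8 CPM and 8.10, 8.18 and 11.4 CPM and fell 2.55-fold (−1.35 ± 0.20, edgeR adjusted p = 0.0357). Sting1 was not called without any 1 of wild-type replicates 1, 2 and 3 or heterozygous replicates 1 and 2 (edgeR adjusted p from 0.0521 to 0.218), and Zbp1 was not without wild-type replicate 1 or 2 or heterozygous replicate 1 or 2 (0.0578 to 0.218). Tlr7, an endosomal RNA receptor, measured 5.55, 5.49 and 6.07 CPM and 1.22, 2.67 and 2.06 CPM, and missed the threshold (−1.52 ± 0.28, edgeR adjusted p = 0.0539).

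Leukocyte markers were lower in the heterozygous livers too, with lower medians than the members. Summed over 4 markers of all leukocytes (Ptprc, Laptm5, Coro1a and Cd52), wild-type libraries held 123 to 162 CPM and heterozygous libraries 54.2 to 69.1 CPM. Laptm5 and Coro1a fell among these (log2 fold change −1.20 ± 0.13 and −1.03 ± 0.16, edgeR adjusted p = 0.0308 and 0.0445). Sums over 7 monocyte and macrophage markers were 232 to 388 and 88.2 to 115 CPM, with falls of Ccr2 (−1.59 ± 0.20) and Lyz2 (−1.68 ± 0.22). Lyz2 alone made up most of these sums, at 189 to 349 CPM in wild-type and 73.4 to 95.1 CPM in heterozygous libraries. All 7 markers had negative log2 fold changes. Over 7 Kupffer cell markers the sums were 201 to 457 and 99.7 to 147 CPM, of which Cd5l alone held 138 to 259.9 and 61.6 to 87.5 CPM. In edgeR 0 of the 7 passed. At an unadjusted p of 0.05, 4 of 7 were lower (9.0% of all genes), and in DESeq2 3 of 7 (3.36% of all genes), while Timd4 overlapped and Folr2 had a log2 fold change of 0.41 ± 0.42. Clec4f measured 48.6, 38.5 and 5.42 CPM in wild-type and 4.31, 4.97 and 3.90 CPM in heterozygous libraries, so wild-type replicate 3 lay close to the heterozygous ones. The 5 markers of plasmacytoid dendritic cells, strong producers of interferon α, summed to 2.79 to 6.04 and 1.39 to 2.06 CPM. Only 2 of these 5 had enough reads to be tested, and 0 passed in edgeR or DESeq2. Neutrophil markers summed to 22.2 to 28.7 and 7.16 to 12.0 CPM, with a fall of Csf3r (−1.25 ± 0.21). Of the 4 neutrophil markers tested, 1 passed in edgeR (0.559% of all genes) and 3 in DESeq2 (3.36%), while Cxcr2 overlapped (−0.49 ± 0.57). T and NK cell markers summed to 19.1 to 30.0 and 12.7 to 15.2 CPM. Of the 8 T and NK cell markers tested, 0 passed in edgeR or DESeq2. In every heterozygous library 4 of the 8 were lower (11.3% of all genes were), and the other 4 overlapped. Chil3 had 0 reads in heterozygous replicate 2, and Ly6g, which defines neutrophils, had 1 read in each wild-type and 0 in each heterozygous library.

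The calls of Laptm5, Coro1a, Ccr2, Lyz2 and Csf3r were each lost without heterozygous replicate 1 or 2 (edgeR adjusted p from 0.168 to 0.218). Coro1a, Ccr2 and Csf3r were also not called without any 1 of the wild-type libraries, Laptm5 without wild-type replicate 2 and Lyz2 without wild-type replicate 3 (0.0508 to 0.132).

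Among markers of other liver cells, the 6 of stellate cells, which make collagen, also summed lower in every heterozygous library (279.8 to 371 CPM) than in the wild-type ones (386 to 487 CPM). Dcn alone held 214 to 269.8 CPM in wild-type and 157 to 206 CPM in heterozygous libraries. Of the 6 stellate cell markers 0 passed in edgeR, and 4 were lower at an unadjusted p of 0.05 (9.0% of all genes). In DESeq2 1 was lower (3.36% of all genes), Col1a1 (log2 fold change −1.03 ± 0.39 in edgeR, DESeq2 adjusted p = 0.0339). Lrat (0.14 ± 0.13) and Des (−0.01 ± 0.18) overlapped between the groups. The 6 sinusoidal endothelial markers went both ways, with a median of 0.35, a range from −1.19 (Lyve1) to 0.72 (Kdr) and 0 past the threshold in edgeR or DESeq2. Cholangiocyte marker sums overlapped between the groups (18.0 to 27.9 and 12.3 to 29.0 CPM). Hepatocyte markers overlapped between the groups for all 6 genes (10372 of the 12706 tested genes did), with a median log2 fold change of −0.05. The highest wild-type library for the leukocyte sum, replicate 2, was also the highest for most members. Within the heterozygous group replicate 3 held the highest leukocyte sum, 69.1 CPM, and the lowest mean level of the members, 3.72. The part of leukocyte or stellate cell content in the members' differences was not tested.

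**Figure D4:**
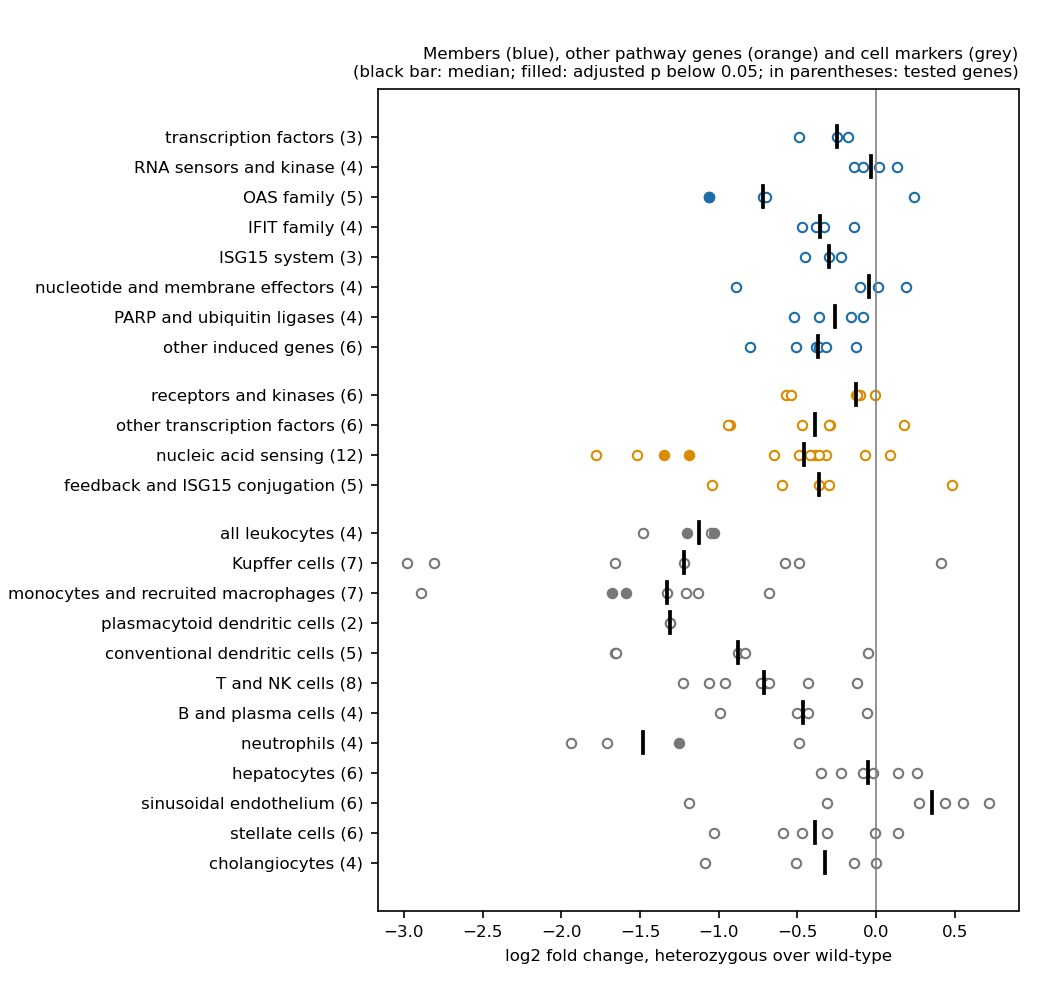
Log2 fold change (heterozygous over wild-type, x axis) of each tested gene by list, with the number tested in parentheses, the list median as a black bar and filled points where the edgeR adjusted p is below 0.05. Medians of the member groups lie between −0.72 and −0.03, and those of the leukocyte marker lists between −1.48 and −0.47.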

How the data were processed

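Poly(A)-selected, stranded libraries of 6 liver samples, 3 per group, were sequenced, per the labels' protocols. The submitters' processing notes name Trimmomatic 0.36, HISAT2 2.2.1.0, HTSeq 0.9.1 and build GRCm39. The sources used here give no annotation, strand setting or filter. The authors deposited raw read counts per gene symbol, without normalization, in 1 table, and its 6 columns were all used. Sample titles gave the groups and replicate numbers. No pair of libraries held the same values within sampling noise.

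Counts were filtered (filterByExpr), scaled (TMM) and fitted in edgeR 4.0.16 under R 4.3.3 with robust glmQLFit and glmQLFTest, with Benjamini-Hochberg adjustment over all 12706 tested genes at 0.05. CPM are TMM-scaled, and log2 CPM used a prior count of 2. Each SE was taken from the fold change and its F statistic. Alternatives were DESeq2 1.42.0, limma-voom (limma 3.58.1), other scalings, filters and thresholds, the replicate number as a block, and libraries left out. The test was also run on simulated counts, and the outcome is not reported here. By rule, values of every library were given for members past the threshold and for the 2 of smallest p in each role group, and for called pathway genes, Cebpb, Clec4f, Ifnar1, Ifnar2, Ifnb1 and Ifng. Oas3, Oasl1, Rsad2, Cmpk2, Usp18, Dtx3l, Ifngr1, Ifngr2, Tlr7, Ifnk, Socs3, Chil3, Ly6g, Cxcr2, Timd4, Folr2, Cd5l, Col1a1, Dcn, Lrat, Des, Lyve1 and Kdr fall outside that rule and were added after their values were seen. A pathway gene that the rule also names is not reported here. Members, lists and tests were chosen with earlier results of these data known. Stretches shared between genes were counted in GENCODE M21 transcripts.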

Additional observations from a re-analysis of the deposited data

How the results depend on the processing

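The median log2 fold change of the 33 members kept its sign in all 15 alternatives fitted, running from −0.39 to −0.25. It moved from the main −0.32 by no more than the larger SD of the members' mean level between libraries of a group. In any alternative 0 members were called higher. The count of members called lower was 1, and 2 with DESeq2, with no filter on low counts and at an adjusted p of 0.1, 1 with RLE scaling and at least 1 CPM in 3 samples, and 0 with upper-quartile scaling, limma-voom, a non-robust fit and the fit lacking both wild-type replicate 1 and heterozygous replicate 2. Leaving out 1 library gave 0 to 1. All genes called lower numbered 71, against 36 with upper-quartile scaling, 190 with no filter, 47 with at least 1 CPM in 3 samples, 441 in DESeq2, 0 in limma-voom (1686 genes at an unadjusted p under 0.05), 20 in the non-robust fit, 4 without both libraries, 292 at 0.1 and 0 to 107 without 1 library. All genes called higher numbered 3, against 1, 21, 1, 82, 0, 0, 0 and 33 under the same alternatives and 0 to 15 without 1 library. Pathway genes called lower numbered 2, against 5 with no filter, 7 in DESeq2, 5 at 0.1, 0 in limma-voom, the non-robust fit and without both libraries, and 0 to 2 without 1 library. The replicate block gave 0 members, 0 lower and 0 higher genes overall and 0 pathway genes (1427 genes at an unadjusted p under 0.05), and 11 members at an unadjusted p under 0.05. Deviations from the group mean in libraries with the same number had correlations of −0.21, −0.31 and 0.19. With 3 libraries per group such values cannot show whether samples were paired, and the main fit treated them as unpaired. The largest of the 9 correlations between libraries of the 2 groups, 0.42, joined wild-type replicate 1 and heterozygous replicate 2. The cause of these changes was not tested.

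Members near 0 changed sign. Leaving out 1 library, log2 fold changes ran from −0.002 to 0.26 for Dhx58, −0.05 to 0.11 for Ddx58, −0.44 to 0.09 for Ifit1, −0.51 to 0.05 for Usp18, −0.21 to 0.32 for Rsad2, −0.03 to 0.44 for Cmpk2, −0.48 to 0.54 for Dtx3l and −0.70 to 0.02 for Cebpb. Rsad2 stood at −0.08 in limma-voom and −0.06 with the replicate block, and Dtx3l at 0.01 with the block. With both libraries out Ddx58 was −0.12, Bst2 0.02 and Ifi35 0.03. Depth limits the least abundant members, Oas3 and Ifit3b, to 17 to 62 reads per library.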

Other observations

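Dtx3l varied more than any other member and not by group. It measured 11.8, 48.0 and 25.2 CPM in wild-type replicates 1 to 3 and 40.2, 13.3 and 27.0 CPM in heterozygous replicates 1 to 3. Parp9, which overlaps Dtx3l in RefSeq and encodes its partner, stayed between 41.3 and 57.1 CPM. The low Dtx3l libraries, wild-type replicate 1 and heterozygous replicate 2, are those with the highest Socs3 levels, 48.1 and 101 CPM, against 4.08 to 21.4 CPM in the others. This was noticed in the data, and its cause was not tested.

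The response element word was present in some of the members with the lowest fold changes and absent from others. Oas3 (log2 fold change −1.06) held it, and the window of Oasl2 (−1.06) did not. Over the 13 with the word the median log2 fold change was −0.25, and 6 had separate groups. Over the 13 without it the median was −0.38, and 6 had separate groups too, all lower, against 11.3% of all genes. These counts describe the windows searched and were not tested.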
